A study of Mus musculus with 26 samples.

Results

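Open chromatin of D1 medium spiny neurons (MSNs) was compared between chronic cocaine followed by prolonged withdrawal (CS) and baseline (SS). Each state was represented by 1 list of ATAC-seq peaks. ATAC-seq uses a transposase to insert sequencing adapters into accessible DNA, and a peak marks a site where insertions exceed the local background. The members were all peaks of both lists on chromosomes 1 to 19 and X, 48443 in D1 CS and 28568 in D1 SS, 77011 of the 399299 such peaks in the 8 lists of the series. A peak was called shared when it overlapped a peak of the other list by at least 1 bp, and CS-only or SS-only when no peak of the other list lay within 1 kb. The D1 CS list comes from 4 libraries and the D1 SS list from 2, of 26 libraries in the series. The labels give mouse brain as tissue, D1 MSN or D2 MSN as cell type and the treatment code, and the series title places the nuclei in the nucleus accumbens. The other lists used for comparison were acute cocaine (SC) and cocaine relapse (CC) in D1 MSNs, and CS, SC, CC and SS in D2 MSNs. D1 SC and D1 CC come from 4 libraries each and D2 CS from 8. D2 SS comes from 2, and D2 SC and D2 CC from 1 each. Strain, age, sex, the length of withdrawal and the way nuclei were sorted were not given in the sources used here.

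D1 MSNs carry the dopamine receptor Drd1 and the peptides dynorphin and substance P and project along the direct pathway, whereas D2 MSNs carry Drd2, enkephalin and the adenosine receptor Adora2a. Cocaine blocks dopamine reuptake, and the nucleus accumbens is a main site of its rewarding action. Accessible sites are found at the promoters of most active genes, where they are shared by many cell types, and at distal enhancers, which are more often specific to a cell type or state.

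The labelled cell type was checked against its markers. Of 10 D1 MSN marker genes, 9 had a peak in D1 CS and 9 in D1 SS, and the promoter of Drd1 was open in both. These markers do not separate the cell types here, since 8 or 9 of the 10 genes had a peak in each D2 list and Drd1 had a peak in all 8 lists. Of 10 D2 MSN markers, 8 had a peak in D1 CS, 2 in D1 SS, 8 in D1 SC and 9 in D1 CC and in each D2 list. The lists hold no value per library, so differences describe these 2 lists, no value has a replicate error and no p-value between states can be given. Intervals are exact (Clopper-Pearson, 95%) and allow for counting error alone. Read totals were not used here. A single background level for each list, inferred from the steps between its fold values, was 3.5 reads for D1 CS and 4.12 for D1 SS. It was not measured from reads and does not give the local background of each peak. On patch scaffolds, which are corrected versions of stretches of the reference genome, D1 CS held 114 peaks and D1 SS held 4. The other lists fell on both sides, with 70 to 137 patch peaks in D2 CS, D1 SC and D1 CC, and 7 each in D2 SS, D2 SC and D2 CC. The withdrawal state and whatever separates these 2 sets of lists cannot be told apart from D1 CS and D1 SS alone. In lists of sites from many nuclei, fewer cells of a type and less open chromatin per cell also cannot be told apart.

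Promoters of 6 genes are printed as examples and do not represent all differing sites. Only 24.1% of CS-only and 3.25% of SS-only peaks lay within 1 kb of a transcript start. Each promoter is the RefSeq window from 250 bases before to 50 bases after a transcript start on GRCm38.p6, written 5′ to 3′ on the gene's strand. Capitals mark motif matches on either strand. The GC box was searched as GGGCGG, the core of the cAMP response element as TGACGT, the CCAAT box under its own letters, the TATA box as TATAAA, and the core of the NRF1 site as GCATGCG. The first 4 lie under CS-only peaks, Drd2 only in part. They are shown because their genes recur below: the D2 receptor gene Drd2 (chr9:49340153-49340452, plus strand), the D2 MSN receptor gene Gpr6 (chr10:41072241-41072540, minus strand), the immediate-early gene Fos (chr12:85473640-85473939, plus strand) and the myelin gene Mog (chr17:37023349-37023648, minus strand). Rbm3os (chrX:8145177-8145476, plus strand) had the highest fold of the CS-only peaks present in all other 6 lists. Ipcef1 (chr10:7023136-7023435, minus strand) lies in part under an SS-only peak and is shown as one of the few promoters on that side.
Drd2: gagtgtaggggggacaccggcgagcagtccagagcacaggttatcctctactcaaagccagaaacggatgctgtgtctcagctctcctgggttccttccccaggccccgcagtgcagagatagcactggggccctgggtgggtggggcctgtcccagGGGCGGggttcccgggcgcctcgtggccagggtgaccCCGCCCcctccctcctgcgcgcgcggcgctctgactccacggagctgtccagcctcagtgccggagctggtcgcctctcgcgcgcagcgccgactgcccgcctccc
Gpr6: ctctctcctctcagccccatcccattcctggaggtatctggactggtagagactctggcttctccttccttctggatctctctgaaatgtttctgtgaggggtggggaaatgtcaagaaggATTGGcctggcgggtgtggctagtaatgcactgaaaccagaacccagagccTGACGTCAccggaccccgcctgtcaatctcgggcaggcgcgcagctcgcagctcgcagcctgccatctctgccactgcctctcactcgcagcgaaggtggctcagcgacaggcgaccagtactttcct
Fos: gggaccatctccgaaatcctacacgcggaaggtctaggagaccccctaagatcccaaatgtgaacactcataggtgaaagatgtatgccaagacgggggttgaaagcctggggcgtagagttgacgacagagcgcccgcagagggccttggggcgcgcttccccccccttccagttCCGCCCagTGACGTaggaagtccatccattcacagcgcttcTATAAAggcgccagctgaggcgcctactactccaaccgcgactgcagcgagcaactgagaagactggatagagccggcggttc
Mog: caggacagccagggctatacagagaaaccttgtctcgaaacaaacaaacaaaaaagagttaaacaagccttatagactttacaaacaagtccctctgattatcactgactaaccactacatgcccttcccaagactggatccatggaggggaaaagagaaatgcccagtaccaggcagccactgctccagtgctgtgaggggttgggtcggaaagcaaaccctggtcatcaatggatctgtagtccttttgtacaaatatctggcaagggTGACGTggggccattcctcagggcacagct
Rbm3os: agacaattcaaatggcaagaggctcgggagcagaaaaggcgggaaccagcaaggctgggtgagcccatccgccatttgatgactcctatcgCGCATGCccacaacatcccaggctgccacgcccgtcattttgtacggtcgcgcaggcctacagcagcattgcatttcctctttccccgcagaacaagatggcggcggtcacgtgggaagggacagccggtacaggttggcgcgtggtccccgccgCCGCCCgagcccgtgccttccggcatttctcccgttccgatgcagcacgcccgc
Ipcef1: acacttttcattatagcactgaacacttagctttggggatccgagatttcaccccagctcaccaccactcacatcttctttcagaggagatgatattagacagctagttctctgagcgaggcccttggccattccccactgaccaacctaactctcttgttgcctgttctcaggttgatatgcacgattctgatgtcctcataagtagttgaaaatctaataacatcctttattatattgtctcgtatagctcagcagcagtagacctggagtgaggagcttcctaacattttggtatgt
The Drd2 window is rich in G and C (70.3%) and holds 2 GC boxes. The CS-only peak covers only its last 97 bases, and both GC boxes lie outside that part. The Fos window holds a GC box, a cAMP response element core and a TATA box, and the Gpr6 window holds the core on both strands, overlapping. The Ipcef1 window has 43.7% G and C and none of the 7 motifs searched, which also included TGACTCA (AP-1) and CATCTG (E-box of activity genes).

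A larger share of the D1 SS list than of the D1 CS list was found in the other list. Of the D1 CS peaks, 25182 (52.0%, interval 51.5 to 52.4) overlapped a D1 SS peak, and of the D1 SS peaks 24827 (86.9%, 86.5 to 87.3) overlapped a D1 CS peak. The CS-only set held 21447 peaks, 44.3% of the CS list, and the SS-only set held 3292 peaks, 11.5% of the SS list. The remaining 1814 CS peaks (3.74%) and 449 SS peaks (1.57%) had a peak of the other list within 1 kb without overlap. CS-only peaks were narrow, with a median width of 272 bp, against 316 bp for SS-only peaks and 648 and 528 bp for shared peaks in D1 CS and D1 SS. The D1 CS peaks covered 24.9 Mb in all and the D1 SS peaks 14.2 Mb. When the CS list was cut to its 28568 strongest peaks by q-value, the length of the SS list, 72.7% of CS peaks and 73.5% of SS peaks were found in the other list, with 7191 CS-only and 7129 SS-only peaks. Equal length makes the 2 numbers alike by construction.

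The authors' fold, the enrichment of a peak over its local background, was used only to rank peaks within a list. Each list was ranked into 10 equal bins by fold. Of D1 CS peaks, 14.6% in the lowest bin and 96.8% in the highest were found in D1 SS. Of D1 SS peaks, 73.6% in the lowest bin and 99.5% in the highest were found in D1 CS. The strongest sites were common to both lists. Within D1 CS the median fold was 4.00 for CS-only and 5.78 for shared peaks. Within D1 SS it was 3.91 for SS-only and 4.69 for shared peaks.

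**Figure D1:**
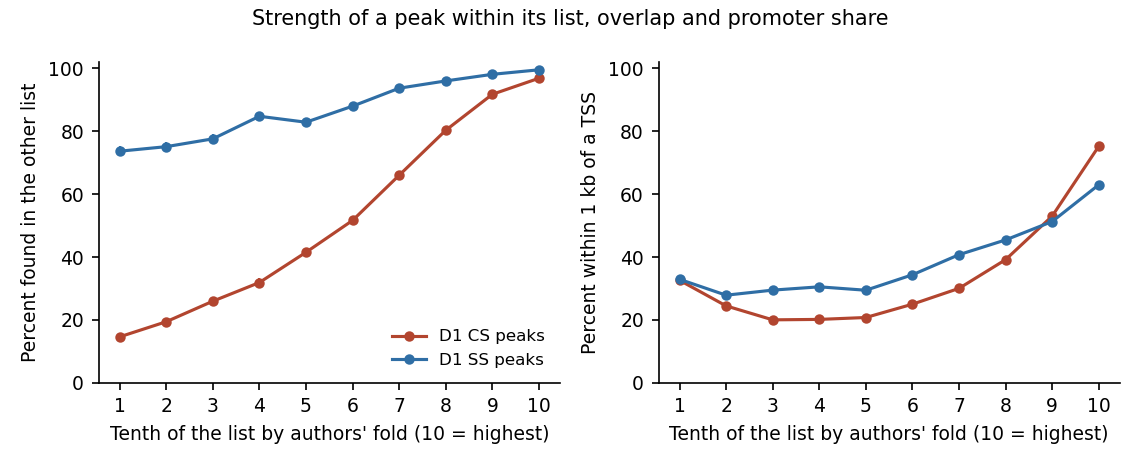
Percent of D1 CS peaks (red) and D1 SS peaks (blue) found in the other list (left, with vertical lines for 95% intervals, mostly hidden by the points) and percent within 1 kb of a TSS, the start of transcription (right), over 10 equal bins of each list ranked by the authors' fold. In the highest bin 96.8% of CS peaks and 99.5% of SS peaks were found in the other list, and in the lowest bin 14.6% and 73.6%.

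Promoters made up a smaller share of the CS-only sites than of all D1 CS peaks, and almost none of the SS-only sites. Up to 1 kb from the start of transcription (TSS), by the authors' signed distance from peak to TSS, lay 5161 of the 21447 CS-only peaks (24.1%, 23.5 to 24.6) and 107 of the 3292 SS-only peaks (3.25%, 2.67 to 3.91). Shared peaks stood at 41.9% in D1 CS and 43.5% in D1 SS, and all peaks at 34.0% and 38.5%. Intergenic sites made up 26.4% of CS-only and 52.0% of SS-only peaks, and gene bodies 41.3% and 40.2%. Read by class, 27.3% of the CS peaks within 250 bp of a TSS were CS-only, whereas 0.409% of the SS peaks there (38 of 9299) were SS-only. Further out, 53.7% of CS gene-body peaks were CS-only and 16.0% of SS gene-body peaks SS-only. The corresponding shares of intergenic peaks were 46.3% and 21.8%. At equal length the contrast kept its direction, with 31.4% of CS-only and 6.68% of SS-only peaks within 1 kb of a TSS.

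**Figure D2:**
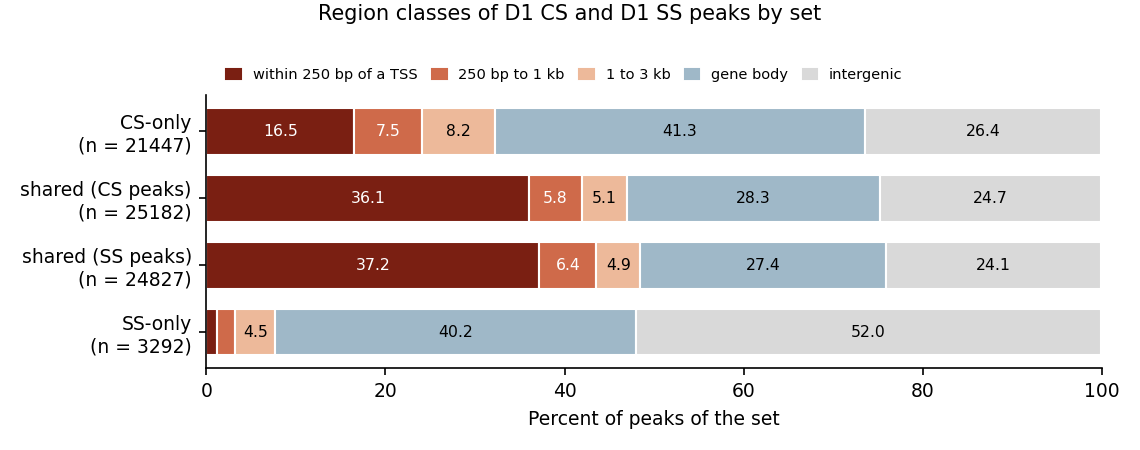
Percent of peaks in each of the authors' region classes for CS-only, shared and SS-only peaks, with the number of peaks in each set on the left axis and subtelomeric peaks, under 0.1%, not drawn. Promoter classes (red shades) hold 24.1% of CS-only peaks within 1 kb of a TSS and 3.25% of SS-only peaks, where intergenic sites (light grey) reach 52.0%.

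Among peaks with an assigned gene, the median distance to the TSS was 6735 bp for CS-only, 322 bp for shared (D1 CS) and 40789 bp for SS-only peaks. Within gene bodies the medians were 31.1 kb for CS-only, 43.4 kb for shared and 58.6 kb for SS-only peaks. Intergenic CS-only peaks lay a median of 27.8 kb from the nearest RefSeq protein-coding gene, shared ones 63.5 kb and SS-only ones 184 kb. SS-only sites were thus far from genes or deep within long ones, and CS-only sites were nearer to genes than the shared distal sites. Host genes were longest for SS-only peaks, with median lengths of 42.7 kb for protein-coding genes with a CS-only peak, 32.1 kb with a shared peak and 173 kb with an SS-only peak. Across chromosomes, the ratio of CS to SS peaks was 2.41 on chromosome 7, 2.17 on 17 and 2.08 on 19, and 1.38 on X and 1.40 on 3.

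The promoters under CS-only peaks resembled those under shared peaks in base composition more than promoters without a peak. Of 32585 RefSeq promoter windows, 2593 lay under a CS-only peak, 10147 under a shared peak and 19 under an SS-only peak, while 19657 had none. Median G and C content was 61.0% under CS-only peaks, 62.7% under shared peaks, 43.7% under SS-only peaks and 48.0% without a peak. A GC box stood in 60.8% of CS-only, 69.7% of shared and 21.1% (4 of 19) of SS-only windows, against 35.9% of all windows. The cAMP response element core stood in 7.83% of CS-only and 13.5% of shared windows, against 7.56% of all, and the NRF1 core in 3.86% and 7.73%, against 3.58% of all. TATA boxes were less frequent in both sets (6.52% and 5.43%) than in all windows (13.7%). All windows were ranked into 5 bins of 6517 by G and C content. A CS peak lay over 267 windows of the lowest bin, 73 of them CS-only (27.3%), and over 5657 of the highest, 1008 of them CS-only (17.8%). A motif match describes letters and is not evidence of binding.

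Nearly all differing sites were also open in some other list of the series. Of the CS-only peaks 1771 (8.26%) and of the SS-only peaks 82 (2.49%) were in no other list. CS-only peaks were found most often in D1 relapse (D1 CC, 86.6%), then in D2 CC (67.7%), D2 SS (63.8%) and D2 SC (56.8%), and least often in D1 SC (24.5%) and D2 CS (23.0%). SS-only peaks were found in D1 CC (81.5%) and in D2 CC (93.5%), D2 SS (90.2%) and D2 SC (88.7%), but seldom in D1 SC (8.26%) and D2 CS (4.83%). D1 CC, D2 CC, D2 SS and D2 SC are the 4 longest of the other lists, with 58790 to 77070 peaks. D1 SC and D2 CS are the shortest, with 28310 and 27898. The shares in D2 CC and D2 SC rest on 1 library each. Shared peaks were found in 74.8% (D2 CS) to 99.7% (D1 CC).

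**Figure D3:**
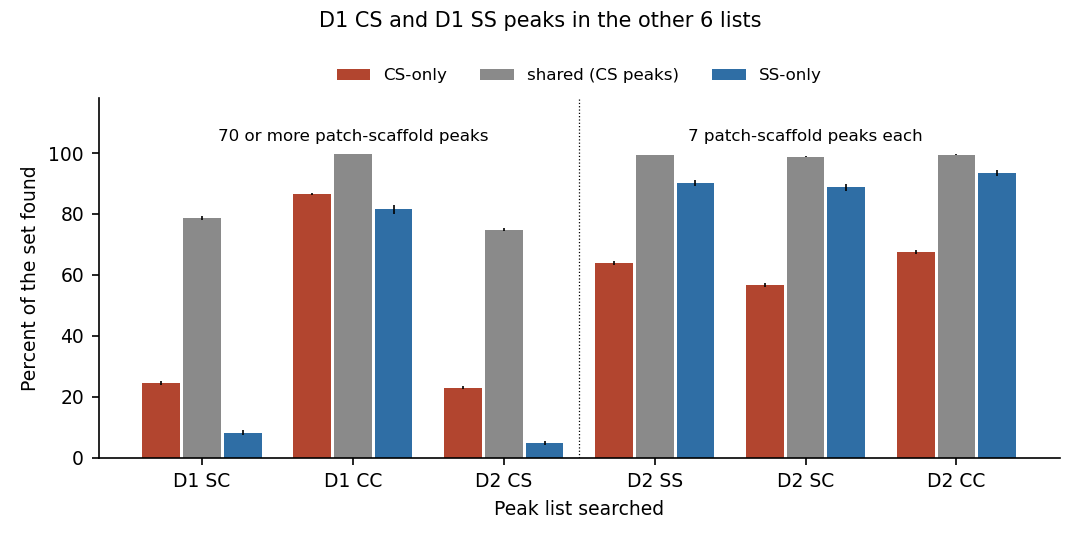
Percent of CS-only (red), shared (grey) and SS-only (blue) peaks that overlap a peak in each of the other 6 lists, with 95% intervals. Lists left of the dotted line share the high count of patch-scaffold peaks with D1 CS, lists right of it the low count with D1 SS. SS-only peaks reach 93.5% in D2 CC and 4.83% in D2 CS, CS-only peaks 86.6% in D1 CC and 23.0% in D2 CS.

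The lists that share the low patch count of D1 SS held most CS-only sites, but a smaller share than of all D1 CS peaks. Of the CS-only peaks, 16255 were in D2 SC, D2 CC or D2 SS (75.8%, 75.2 to 76.4), and 23.5% of these lay within 1 kb of a TSS. The share in these lists was 88.8% for all D1 CS peaks and 99.9% for shared ones. Conversely, at least 1 of D1 SC, D1 CC and D2 CS held 2690 SS-only peaks (81.7%), beside 99.8% of shared D1 SS peaks. D1 CC alone held 81.5% of SS-only peaks and 97.5% of all D1 SS peaks. All 6 other lists held 2222 CS-only peaks (10.4%), sites missing only from D1 SS, and 1154 of these (51.9%) lay within 1 kb of a TSS. The reverse, SS-only sites missing only from D1 CS, numbered 41 (1.25%), 1 of them within 1 kb of a TSS. The commonest pattern among SS-only peaks was presence in D1 CC and all of D2 SS, D2 SC and D2 CC but not in D1 SC or D2 CS, with 2033 peaks (61.8%). The same pattern held 5084 CS-only peaks (23.7%). In D2 MSNs the same states can be set side by side, though D2 SS has 61796 peaks and D2 CS 27898. These 2 lists also fall on opposite sides by patch-scaffold peaks, D2 CS (70) with D1 CS and D2 SS (7) with D1 SS. State and patch division therefore cannot be told apart in D2 MSNs either. Of the CS-only peaks 879 (4.10%) were in D2 CS and not D2 SS, and 9633 (44.9%) in D2 SS and not D2 CS. For shared D1 CS peaks these numbers were 22 (0.0874%) and 6191 (24.6%). Of all D1 CS peaks 50.2% were in D2 CS and 82.9% in D2 SS. Of the SS-only peaks 2 were in D2 CS and not D2 SS, and 2814 (85.5%) in D2 SS and not D2 CS. For shared D1 SS peaks these numbers were 23 (0.0926%) and 5752 (23.2%). Of all D1 SS peaks 67.0% were in D2 CS and 98.1% in D2 SS.

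A small group of strong CS-only sites followed the patch-scaffold division of the lists. In exactly D1 SC, D1 CC and D2 CS were 319 CS-only peaks (1.49%), with a median fold of 6.17 and 57.1% within 1 kb of a TSS. In the mirror pattern, exactly D2 SC, D2 CC and D2 SS, were 367 SS-only peaks (11.1%), with a median fold of 3.79 and 2.18% within 1 kb of a TSS. Of the 20 CS-only peaks of highest fold, 16 were in none of D2 SS, D2 SC and D2 CC. In 47 stretches of 39.9 to 3617 kb, D1 CS had at least 5 peaks while D1 SS and the D2 lists SS, SC and CC had none. They hold 455 CS-only peaks (2.12%) named for 221 genes, and 151 of the 319 peaks above. The stretches and the 319 peaks were both chosen by absence from these same lists, so this overlap follows in part from the choice. In 0 stretches did D1 SS have at least 5 peaks while D1 CS, D1 SC, D1 CC and D2 CS had none. The stretch with most D1 CS peaks, 37 over 1298 kb, contains Auts2, a gene linked to neurodevelopment. Auts2 had 31 peaks in D1 CS, all CS-only, 13 in D1 SC, 41 in D1 CC and 12 in D2 CS, and none in D1 SS, D2 SS, D2 SC or D2 CC. Without the 47 stretches, an alternative chosen after the data were seen, 20992 CS-only peaks remained, 23.5% of them within 1 kb of a TSS.

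The strongest CS-only peaks were mostly of this kind. The highest folds within 1 kb of a TSS were at Gm24187, an RNA typed as miRNA by the authors (13.1), Zfp97, a zinc finger gene (12.9), and Srp54a and Srp54b, copies of the gene of a signal recognition particle subunit (12.5 and 12.4). All 4 were in D1 SC, D1 CC and D2 CS and in none of the other 3 lists. Srp54a and Srp54b are closely similar copies, so the placement of reads at either is uncertain, and RefSeq gives these windows other symbols of the family (Srp54b and Srp54c). In gene bodies the highest folds were at Gnb1l (11.8), Abcb1b, a drug efflux transporter (9.09), Majin (9.03) and Celf1, an RNA-binding regulator of splicing (8.81). The Majin and Celf1 sites lie in the 47 stretches, and Majin also matches a patch scaffold by position.

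Sites missing only from D1 SS were led by promoters, each under 250 bp from a TSS. The highest folds were at Rbm3os, the antisense partner of the cold-inducible gene Rbm3 (10.5), Gm21989 (10.3), 2810429I04Rik (10.0), Spopl, a ubiquitin ligase adaptor (9.79), and Gm14399 (9.53). The strongest CS-only peaks in no other list were at Lmbrd1, a lysosomal cobalamin exporter (6.07), and Gcc2, a Golgi coiled-coil protein (5.62, in one of the 47 stretches).

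SS-only sites with the highest folds lay in gene bodies and between genes. In gene bodies they were at Cntn4, an axonal adhesion molecule (7.47), Aff2, a nuclear RNA-binding protein gene on X (7.23), Anxa10, an annexin (7.19), and Sptssb, a subunit regulator of serine palmitoyltransferase (7.04). The highest intergenic folds were 7.75 at chr2:46940925-46941631 and 7.75 at chr2:81101527-81102098. Within 1 kb of a TSS the highest were lower, at Gpd2, mitochondrial glycerol-3-phosphate dehydrogenase (5.08), Ipcef1 (5.07), Pla2g4a, a phospholipase (4.88), and Dmd, dystrophin (4.88). The 4 promoter-near sites were each in 4 other lists. Among SS-only peaks in no other list, 1 lay in Slc6a3, the dopamine transporter gene (fold 4.68, 3.93 kb from the TSS).

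By gene, most genes with a CS-only or an SS-only peak had a single one. A CS-only peak was assigned to 8605 genes, 5453 of which had 1, and an SS-only peak to 1169 genes, 935 of which had 1. Both kinds occurred in 608 genes, which is 7.07% of the genes with a CS-only peak and 52.0% of those with an SS-only peak. Of the protein-coding genes with a peak in either list, 49.7% had a CS-only peak and 6.75% an SS-only peak. In all, 5040 genes had a peak in D1 CS and none in D1 SS, and 553 the reverse.

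After Auts2, the genes with most CS-only peaks were Gm20388 (29), Ptprn2, a secretory-granule protein (26), Ank3, ankyrin-G of the axon initial segment (22), Cdh13, a membrane-anchored cadherin (21), Rbfox1, a neuronal splicing regulator (21), and Dpp6, an auxiliary subunit of potassium channels (21). Csmd1 had 20, and Asic2, an acid-sensing channel, and Anks1b, a postsynaptic protein, had 19 each. All have peaks in both D1 lists except Auts2. Ptprn2, for example, had 39 peaks in D1 CS and 13 in D1 SS. All 26 CS-only peaks were also in D1 CC, beside 86.6% of all CS-only peaks. At equal length Auts2 kept 20 CS-only peaks, Ptprn2 and Ank3 11 each, and Dpp6 2.

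The genes with most SS-only peaks were led by Cntn4 with 12 of its 21 D1 SS peaks, while D1 CS had 11 peaks there, 1 of them CS-only. All 12 SS-only sites were in at least 1 of D2 SS, D2 SC and D2 CC, as were 96.3% of all SS-only peaks. In D1 CC were 5 of the 12, beside 81.5% of all SS-only peaks. Kcnip4, a potassium channel-interacting protein, Ptprd, a synaptic receptor phosphatase, and Lingo2 had 8 SS-only peaks each, and Gpc5, a glypican, 7. Immp2l, Lrp1b, Pde4d and Mgat4c had 6 each. Of these, Kcnip4 and Pde4d, a cAMP phosphodiesterase, also had 8 CS-only peaks each. At equal length Cntn4 had 0 CS-only and 14 SS-only peaks.

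**Figure D4:**
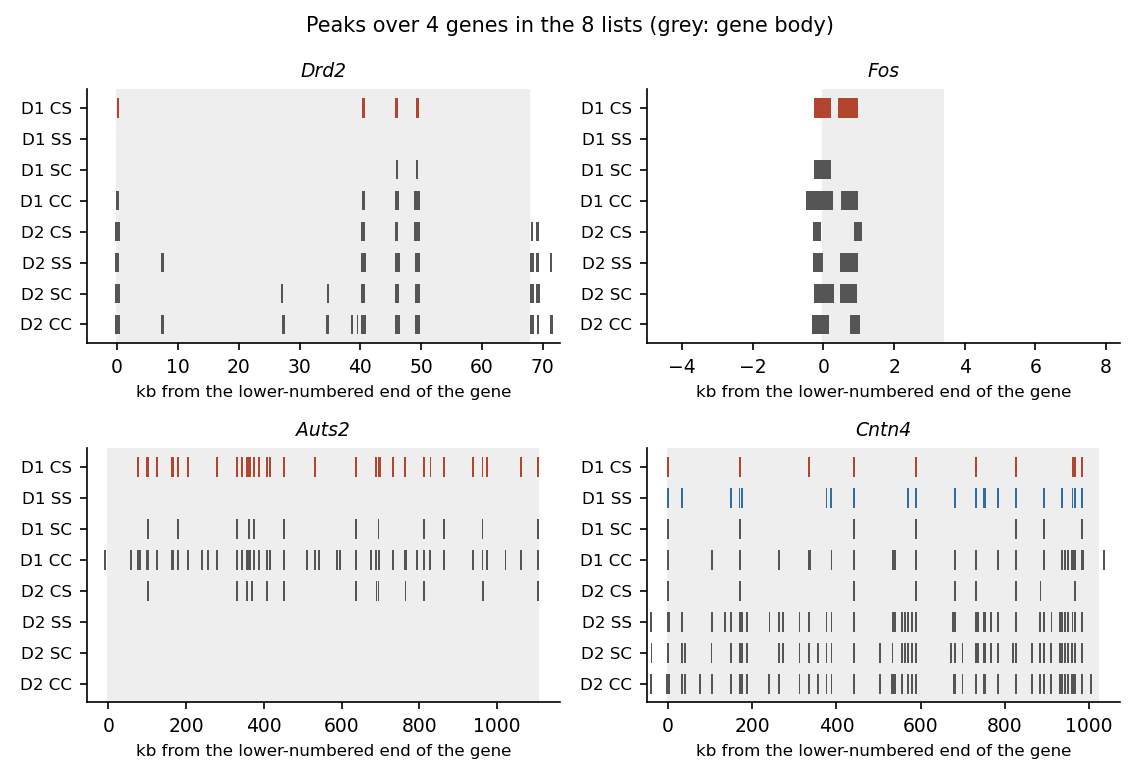
Peaks over Drd2, Fos, Auts2 and Cntn4 in the 8 lists (D1 CS red, D1 SS blue, others dark grey), in kb from the lower-numbered end of each gene, with the gene body in light grey; bars are drawn no thinner than a fixed minimum. D1 SS is empty over Drd2 and Fos while every other list has peaks, Auts2 is empty in D1 SS and in D2 SC, CC and SS, and Cntn4 has 11 peaks in D1 CS and 21 in D1 SS by the authors' gene name.

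Markers of D2 MSNs had a high share of CS-only peaks, as had the smaller groups of striatal interneuron markers (6 of 8) and microglia markers (5 of 6). Of the D1 CS peaks assigned to protein-coding genes 42.7% were CS-only, and of the D1 SS peaks 7.15% were SS-only. For 10 D2 MSN markers, D1 CS had 27 peaks in 8 genes, 21 of them CS-only (77.8%), and D1 SS had 5 peaks in 2 genes, none SS-only. All 8 genes had more peaks in D1 CS than in D1 SS. Of all 13491 protein-coding genes with a peak in either list, 7113 had more in D1 CS and 815 fewer. Drd2 had 4 peaks in D1 CS and none in D1 SS, against 2 in D1 SC and 4 in D1 CC. The D2 lists had 5 (CS), 7 (SC), 10 (CC) and 6 (SS). D1 SS was the only list with no Drd2 peak. Its promoter peak in D1 CS (219 bp, fold 4.72) overlaps the window printed above by 97 bases, and the other 3 sites lie 40.2 to 49.2 kb from the TSS. The orphan receptor gene Gpr6 had 2 CS-only promoter peaks and 1 or 2 peaks in every list but D1 SS. The transcription factor genes Sp9 and Six3, the delta opioid receptor gene Oprd1 and the kainate receptor gene Grik3 each had a CS-only promoter peak and no peak in D1 SS. Ptprm, a receptor phosphatase, had 12 peaks in D1 CS, 7 of them CS-only, and 4 in D1 SS. Penk, which encodes enkephalin, had a promoter peak in both lists and 1 CS-only peak 2.88 kb from the TSS. Adora2a had no peak in D1 CS or D1 SS, and 2 or 3 in D1 CC and each D2 list. All 21 CS-only peaks were in at least 1 of D2 SS, D2 SC and D2 CC, beside 75.8% of all CS-only peaks. In D1 CC were 17 of the 21 (beside 86.6%), in D2 CS 12 (beside 23.0%) and in D1 SC 9 (beside 24.5%). Per 1000 protein-coding peaks, the 10 markers took 0.862 in D1 CS and 0.275 in D1 SS, with 0.725 in D1 SC, 0.875 in D1 CC and 0.885 to 1.42 in the D2 lists. At equal length 6 of 10 CS peaks in this group were CS-only (60.0%), beside 24.0% of all protein-coding CS peaks, 3 of 5 for striatal interneuron markers (60.0%) and 3 of 4 for microglia markers. Whether D2 nuclei in the D1 CS libraries have a part in this was not tested.

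Markers of D1 MSNs had a lower share of CS-only peaks and a higher share of SS-only peaks than all protein-coding genes (42.7% and 7.15%). D1 CS had 29 peaks and D1 SS 24, of which 9 (31.0%) were CS-only and 4 (16.7%) SS-only. Drd1 (1 and 1), Tac1 for substance P (2 and 2) and Pdyn for dynorphin (1 and 1) had equal numbers in D1 CS and D1 SS, all shared. The differing sites lay in genes of transcriptional regulators. Zfp521 had 5 CS-only and 1 SS-only peaks, Ebf1 3 and 2, Isl1 1 and 0, and Eya1 0 and 1. At equal length the group had 1 CS-only peak of 17 (5.88%) and 8 SS-only peaks of 24 (33.3%). The shares over all protein-coding peaks were then 24.0% and 17.5%. Of pan-MSN genes, 46 of 103 CS peaks were CS-only (44.7%) and 6 of 61 SS peaks SS-only (9.84%). At equal length 8 of 51 CS peaks were CS-only (15.7%, beside 24.0% of all protein-coding CS peaks) and 18 of 61 SS peaks SS-only (29.5%, beside 17.5%). Bcl11b, a transcription factor of MSN development, had 11 peaks in D1 CS and 2 in D1 SS, and Foxp2 had 8 in D1 CS and 9 in D1 SS.

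Rapid immediate-early genes, whose transcription follows neuronal activity without new protein synthesis, were mostly open in both states. Of 16 genes, 15 had a peak in D1 CS and 14 in D1 SS. CS-only were 7 of 26 CS peaks (26.9%, below the 42.7% of all protein-coding CS peaks). SS-only were 0 of 17 SS peaks, beside 7.15% of all protein-coding SS peaks. All 7 CS-only peaks lay within 1 kb of a TSS. Fos, which encodes an AP-1 subunit, had 2 peaks in D1 CS and none in D1 SS, and 1 or 2 in each of the other 6 lists. The upstream peak (484 bp, fold 3.75) covers the whole promoter window printed above. Egr3 had 2 CS-only promoter peaks, and Fosb, Egr2 and the nuclear receptor gene Nr4a2 had 1 each beside a shared peak. Egr1, Egr4, Fosl2, Junb, Jun, Arc, Npas4, Nr4a1, Nr4a3 and Dusp1 had no CS-only peak. At equal length 3 of 18 CS peaks of the rapid genes were CS-only (16.7%) and 2 of 17 SS peaks SS-only (11.8%). For all protein-coding peaks these shares were 24.0% and 17.5%. In the whole lists delayed activity-regulated genes were also below the background, with 4 of 28 CS peaks CS-only (14.3%) and 1 of 21 SS peaks SS-only (4.76%). These 4 lay in Vgf, a neuropeptide precursor gene, and the clock gene Per1 (2 each), and Bdnf and Homer1 had none.

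Genes of synapses and axons had a higher share of SS-only peaks than all genes. SS-only peaks were 50 of 188 SS peaks (26.6%) for synaptic adhesion, 18 of 80 (22.5%) for glutamate receptors, 20 of 97 (20.6%) for axon guidance and 25 of 129 (19.4%) for voltage-gated ion channels. CS-only peaks were 91 of 248 CS peaks (36.7%), 56 of 132 (42.4%), 53 of 135 (39.3%) and 111 of 219 (50.7%) for the same groups. At equal length these groups had 43.1%, 40.0%, 37.1% and 34.1% of SS peaks SS-only, beside 17.5% of all protein-coding SS peaks. Within them genes went both ways. The calcium channel gene Cacna1c had 19 CS-only peaks, Cacna1e 13 and Cacna1d 11, with no SS-only peak. The postsynaptic scaffold gene Dlgap2 had 19 CS-only peaks and no SS-only peak, and the NMDA receptor genes Grin2a and Grin2b had 10 and 9 CS-only peaks and 0 and 1 SS-only peaks. The metabotropic receptor gene Grm8 had 1 CS-only and 5 SS-only peaks, the adhesion gene Cntn5 4 and 6, and the potassium channel gene Kcnh7 1 and 4. Nrxn2, a presynaptic neurexin, had 4 CS-only peaks and no peak in D1 SS, all in a stretch matched to a patch scaffold. These genes are long, and the median length of genes with an SS-only peak was 173 kb.

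Signalling, GABA-A and chromatin genes lay nearer the background share of SS-only peaks (7.15%) than genes of synapses and axons. Their CS-only shares were below the 42.7% of all protein-coding CS peaks. Among dopamine and cAMP signalling genes 49 of 131 CS peaks (37.4%) were CS-only and 8 of 83 SS peaks (9.64%) SS-only, 6 of the 8 in Pde4d. Adcy5, the main striatal adenylyl cyclase, had 13 peaks in D1 CS, 9 of them CS-only, and 2 in D1 SS. GABA-A receptor genes had 17 of 50 CS-only (34.0%) and 4 of 33 SS-only (12.1%). Among chromatin and cocaine-linked regulators 27 of 73 CS peaks were CS-only (37.0%) and 3 of 44 SS peaks SS-only (6.82%). The DNA methyltransferase gene Dnmt3a, the TET dioxygenase gene Tet3 and the deacetylase gene Hdac4 had 5, 5 and 6 CS-only peaks and no SS-only peak. All 3 SS-only peaks were in Hdac9, which had 12 peaks in D1 CS and 15 in D1 SS. H2A.Z machinery had 4 of 14 CS peaks CS-only (28.6%) and respiratory chain genes 5 of 16 (31.25%), also below 42.7%. Neither group had an SS-only peak, among 10 and 12 SS peaks.

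**Figure D5:**
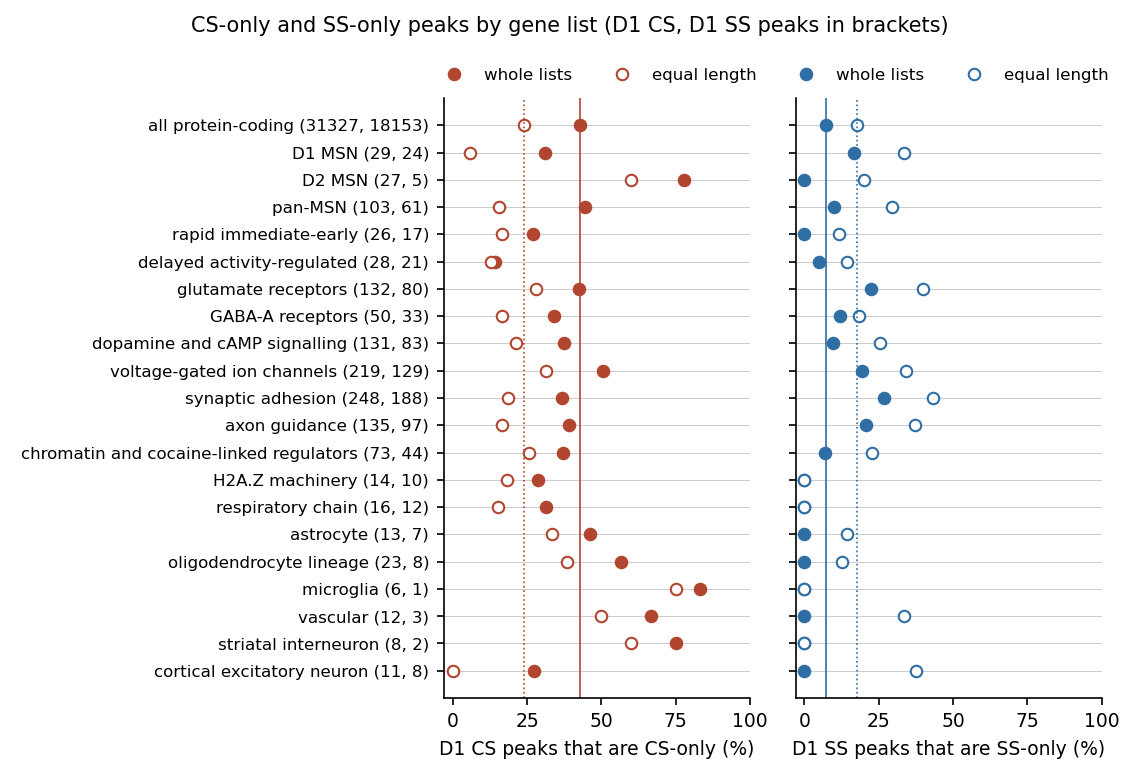
Percent of D1 CS peaks that are CS-only (left) and of D1 SS peaks that are SS-only (right) in 20 gene groups, for whole lists (filled) and for CS cut to the length of SS (open), with lines at all protein-coding genes (solid and dotted). D2 MSN markers stand at 77.8% and 60.0% on the left, and synaptic adhesion genes at 26.6% and 43.1% on the right; groups with under 10 peaks rest on few sites.

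Markers of other cell types were set against the ratio of CS to SS peaks over all protein-coding genes, 1.73. Oligodendrocyte lineage genes had 23 peaks in D1 CS and 8 in D1 SS, vascular genes 12 and 3, striatal interneuron genes 8 and 2, and microglia genes 6 and 1, all above that ratio. Astrocyte genes, with 13 in D1 CS and 7 in D1 SS (1.86), were near it, and cortical excitatory neuron genes, with 11 and 8 (1.38), below it. None of these groups had an SS-only peak in the whole lists, beside 7.15% of all protein-coding SS peaks. At equal length 3 of 8 SS peaks of cortical genes were SS-only, and 1 each in astrocyte, oligodendrocyte and vascular genes, while cortical genes then had 5 peaks in D1 CS and 8 in D1 SS. Per 1000 protein-coding peaks, oligodendrocyte genes took 0.734 in D1 CS and 0.441 in D1 SS, and 0.469 to 0.651 in the other 6 lists. On the same scale astrocyte genes took 0.415 in D1 CS and 0.386 in D1 SS, and 0.259 to 0.494 in the other 6 lists. Cortical excitatory neuron genes took 0.351 in D1 CS, 0.441 in D1 SS and 0.260 to 0.518 in the others. Vascular genes took 0.383 in D1 CS, 0.165 in D1 SS and 0.104 to 0.337 in the others. Striatal interneuron genes took 0.255, 0.110 and 0.155 to 0.404 in the same order, and microglia genes 0.192, 0.0551 and 0.120 to 0.269. For interneuron and microglia genes D1 SS was the lowest of the 8 lists and D1 CS was not the highest. The myelin genes Mog and Mag had 1 and 2 CS-only promoter peaks, no peak in D1 SS and, among the other lists, peaks in D1 CC alone. Mobp, Sox10 and Opalin had no peak in any of the 8 lists, nor had the microglia genes Aif1, Tmem119, Itgam and Trem2. For interneurons, Pvalb and Sst had none in D1 CS or D1 SS, while Npy had a CS-only promoter peak. The part of these cells in the CS-only set was not tested.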

How the data were processed

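Nuclei of D1 and D2 MSNs were profiled by ATAC-seq, with 26 libraries in 8 groups and 1 deposited peak list per group. The submitters' processing notes name cutadapt, HISAT, SAMtools, MACS2 and mm10; versions, settings and whether libraries were pooled before peak calling were not given in the sources used here. For each peak the authors deposited a fold (a ratio over local background), a q-value, a region class and a distance score in bp from peak to TSS with a gene name. These are the authors' own values and were used only to rank or describe peaks within a list. There were 0 columns of single libraries, so the labelled replicates, which may be technical, enter no test.

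Peaks on chromosomes 1 to 19 and X were kept; 217 D1 CS and 50 D1 SS peaks elsewhere were left out. Overlap of at least 1 bp made a peak shared, and the lack of any such peak closer than 1 kb made it CS-only or SS-only. Percentages carry exact Clopper-Pearson 95% intervals. The classification was tested on simulated data, where 4000 of 4000 peaks fell in their own set. Promoter windows came from RefSeq (GRCm38.p6). Software was pandas 2.3.3 with numpy 2.4.6 in Python 3.11.15, scipy 1.17.1 for intervals and matplotlib 3.10.9 for plots.

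Named were the 10 genes with most CS-only and with most SS-only peaks, the 4 peaks of highest fold in each set near a TSS, in gene bodies and between genes, the 5 of highest fold in all or none of the other 6 lists or in the 4 lists D1 CC, D2 SS, D2 SC and D2 CC, and members of 20 gene lists (273 genes). A gene that this rule names is not reported here. The members and lists were chosen with earlier results of these data known. Alternatives were a q-value of at most 1e-05, autosomes, a reciprocal overlap of 50%, a gap of 5 kb, lists of equal length and, chosen after seeing the data, leaving out stretches matched to patch scaffolds or empty in D1 SS and in D2 SC, CC and SS.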

Additional observations from a re-analysis of the deposited data

Results flagged for a closer look

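D1 CS held 114 peaks on patch scaffolds and D1 SS 4, outside the chromosomes compared. On chromosome Y, also left out, D1 CS held 26 peaks and D1 SS 11. The number of peaks in CS over that in SS was 1.70 in D1 MSNs and 0.451 in D2 MSNs, opposite directions. The share of peaks within 1 kb of a TSS, CS minus SS, was -4.45 percentage points in D1 MSNs (34.0% in D1 CS and 38.5% in D1 SS) and 24.9 points in D2 MSNs. With 1 list per group, neither difference between the cell types was tested.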

How the results depend on the processing

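No paired analysis was possible because the peak lists hold no values of single libraries, and leaving out a replicate could not be run for the same reason. At equal length 72.7% of CS peaks and 73.5% of SS peaks were found in the other list, leaving 7191 CS-only and 7129 SS-only peaks, of which 31.4% and 6.68% lay within 1 kb of a TSS. Then 86.9% of CS-only peaks were in D2 SS, D2 SC or D2 CC, and 90.5% of SS-only peaks in D1 SC, D1 CC or D2 CS, and 4096 genes had a CS-only and 2524 an SS-only peak. A reciprocal overlap of 50% gave 38.2% of CS and 64.9% of SS peaks found, and 50.7% of CS-only and 52.0% of SS-only peaks in those other lists. With a q-value of at most 1e-05, 88.1% of SS peaks were found in D1 CS, 27.5% of CS-only peaks lay within 1 kb of a TSS, and 85.6% of CS-only and 90.2% of SS-only peaks were in those other lists. A gap of 5 kb gave 75.1% of CS-only peaks in D2 SS, D2 SC or D2 CC. Without the stretches empty in D1 SS and in D2 SC, CC and SS, 52.5% of CS peaks were found in D1 SS and 77.4% of CS-only peaks in D2 SS, D2 SC or D2 CC. The cause of these shifts was not tested. Of the values recomputed for the main comparisons, 19 moved beyond their counting interval or by over 1.5 times and 31 did not; none changed on autosomes alone or without the stretches matched to patch scaffolds. The 2 lists differ in length, in libraries (4 and 2) and in patch-scaffold peaks, and no replicate error can be given.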
